A study of Mus musculus with 6 samples.

Results

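The G1 cyclins, their kinases and the inhibitors of those kinases were read in peritoneal cavity (PC) B1a cells of mice that lack the alpha chain of the interleukin-2 receptor. The set holds 10 of the 36163 gene names on the array, *Ccnd1*, *Ccnd2*, *Ccnd3*, *Ccne1*, *Ccne2*, *Cdk4*, *Cdk6*, *Cdkn1a*, *Cdkn1b* and *Cdkn2c*. Every non-control probe carrying one of these names was taken, which gave 17 of 55681 probes. Of these 17 probes, 14 (for 8 genes) were bright enough to be tested, and the 3 others were not well above background on any of the 6 arrays. No member probe passed an adjusted p of 0.05 and none changed 2-fold. The probes of *Ccnd2*, *Ccnd3* and *Cdk4* and the brighter probe of *Ccne1* had lower means in knockout samples, by 0.26 to 0.64 on the log2 scale. One of the 2 tested probes of *Cdkn1b* had the largest difference of the set, 0.90 higher on the log2 scale in knockout samples (standard error 0.154, n = 3 per genotype, limma adjusted p = 0.0814), and the other did not share it.

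Total RNA came from PC B1a cells, sorted by flow cytometry, of 7-week-old female mice on a C57Bl/6 background, and each sample was hybridized to its own 1-colour Agilent mouse array. The 3 knockout samples came from p40-/-IL-2Rα-/- mice (p40-/- CD25-/- in the labels) and the 3 control samples from p40-/-IL-2Rα+/- mice (p40-/- CD25+/-). Both genotypes thus lack p40, the subunit that interleukin-12 and interleukin-23 share, and the control mice keep 1 copy of the gene for IL-2Rα (CD25). The labels name no treatment of the mice. The IL-2Rα mutation is carried in every cell of these mice and not only in B1a cells, so that an effect within the B1a cell and an effect of its surroundings cannot be told apart. Each sample pooled a minimum of 3 mice, and since the sources do not tie a replicate to its own animals, the p-values measure the spread between these samples only. Every value below is the log2 of a probe's processed signal minus the 75th percentile of its array, so that 0 marks a probe at that percentile, and differences are knockout minus control. These are bulk samples, in which fewer cells of a type and less RNA per cell cannot be told apart.

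D-type cyclins are made when growth signals reach a cell, and they bind CDK4 or CDK6 to begin the phosphorylation of the retinoblastoma protein in G1. E-type cyclins with CDK2 complete it, which frees E2F factors to switch on the genes of S phase. Inhibitors hold these kinases back, among them the CIP/KIP proteins p21 (*Cdkn1a*) and p27 (*Cdkn1b*) and the INK4 proteins, to which p18 (*Cdkn2c*) belongs. B1a cells are a long-lived, self-renewing B cell population of the body cavities, and cyclin D2 is known for its part in their formation.

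The arrays read each gene through probes of 60 bases, and what a value means depends on where its probe lies. The probes that the results turn on follow as the array files list them, 5′ to 3′, whole or as a stretch of 30 bases. For *Cdkn1b* both tested probes are shown because they gave different answers.
*Cdkn1b* A_55_P2026562, bases 1 to 30: gtgcttaaaaggttgcatactgagccaagt
*Cdkn1b* A_52_P673863, bases 1 to 30: attagccaagcaaccataagactctagtca
*Ccnd3* A_55_P2041075, bases 31 to 60: ctgctgccttAATAAAgatttcagAATAAA
*Ccnd2* A_52_P53906, whole: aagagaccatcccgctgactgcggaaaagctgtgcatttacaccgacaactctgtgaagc
*Cdk4* A_55_P2163143, bases 1 to 30: cttcttccctccctgatttatactgggatc
*Cdk4* A_55_P2166639, whole: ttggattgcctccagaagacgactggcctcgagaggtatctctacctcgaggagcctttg
*Cdkn1a* A_51_P363947, bases 1 to 30: ctaagggagctcacaggacactgagcaatg
Capitals mark AATAAA, the letters of the common signal for transcript cleavage and poly(A) addition, searched on the printed strand. They stand in 2 of the 17 member probes and in 10.1% of all 55681 probes, and the *Ccnd3* probe holds them 2 times. A match says only that these letters are in the probe.

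Knockout arrays had less signal. The 75th percentile ran from 66.5 to 162 on them and from 252 to 272 on control arrays, and 39.7% to 45.9% of their spots were well above background against 47.2% to 50.6%. The array of knockout 2 stood apart, with the lowest of both values and a correlation of 0.968 with each control array against 0.979 to 0.987 for the other knockout arrays. All 6 arrays lay on 1 slide and no spot was saturated. Among all 24751 tested probes, 20 (0.0808%) had a limma adjusted p under 0.05, and 899 (3.63%) passed the thresholds of the study, at least 2-fold with an unadjusted p of at most 0.05. *Il2ra*, the deleted gene, was 1.62, 1.13 and 1.35 on control arrays and -0.31, -0.59 and 0.86 on knockout arrays. It lay below every control value on each knockout array, well above background, and whether its probe falls in the deleted part is not given in the sources used here. *Il12b*, which encodes p40 and is disrupted in both genotypes, was -2.06 ± 0.17 in control and -2.08 ± 0.39 in knockout samples (SD, n = 3). All 5 B1a marker genes were well above background on every array, with a summed level of 195 to 230 times the 75th percentile on control arrays and 191 to 227 on knockout arrays. That sum is carried mostly by *Zbtb32* (difference -0.18); *Itgam* (0.79) and *Bhlhe41* (0.55) were higher in knockout samples without overlap, *Spn* was 0.42 and *Cd5* -0.23, and none passed an adjusted p of 0.05 or 2-fold in limma.

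The D cyclins came first in the order of the pathway, and none of their 4 tested probes passed either threshold. *Ccnd2*, which encodes cyclin D2, was read by 1 probe (chr6:127098696-127098755, minus strand; all coordinates of probes are mm9, as in the array files). Its values were 5.57, 6.21 and 5.90 on the arrays of control 1, 2 and 3 and 5.22, 5.61 and 5.75 on those of knockout 1, 2 and 3. The lowest control value lay within the knockout values, so the genotypes overlapped. Its difference was -0.36 (1.29-fold, standard error 0.223, limma adjusted p = 0.323), with a 95% interval of -0.89 to 0.16 that stays inside 2-fold in both directions. Before scaling, its processed signals were 12500, 18700 and 16200 in control and 4870, 3250 and 8730 in knockout samples, and the 75th percentile that was subtracted was lower on the knockout arrays too.

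*Ccnd3*, which encodes cyclin D3, was read by 2 probes that lie 312 bases apart. The brighter, A_55_P2041075 (chr17:47736579-47736638, plus strand), was 4.75, 4.96 and 5.38 in control and 4.08, 4.53 and 4.57 in knockout samples, and every knockout value lay below every control value. Its difference of -0.64 (1.55-fold, 95% interval -1.16 to -0.12) was the largest among the cyclins and kinases, with a limma adjusted p of 0.156, and 5.32% of all tested probes had a lower difference. The dimmer, A_51_P238448 (chr17:47736267-47736326), was 2.92, 3.55 and 3.62 in control and 2.74, 3.04 and 3.06 in knockout samples. There the array of control 1 lay among the knockout arrays, and the difference was -0.42 (95% interval -0.94 to 0.10, limma adjusted p = 0.27). Both probes of *Ccnd3* and that of *Ccnd2* kept their sign under each scaling tried.

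*Ccnd1*, which encodes cyclin D1, the D cyclin least used by lymphocytes, was close to the lower end of what the arrays measured. Its probe (chr7:152116202-152116261, minus strand) was -1.38, -1.92 and -1.64 in control and -1.78, -1.02 and -1.62 in knockout samples, with processed signals of 66.8 to 101 and 32.7 to 52.7. The values of both genotypes were interleaved. Its difference was 0.17 (95% interval -0.39 to 0.74, limma adjusted p = 0.651), and without knockout 2, whose value was the highest, it was -0.05.

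**Figure D1:**
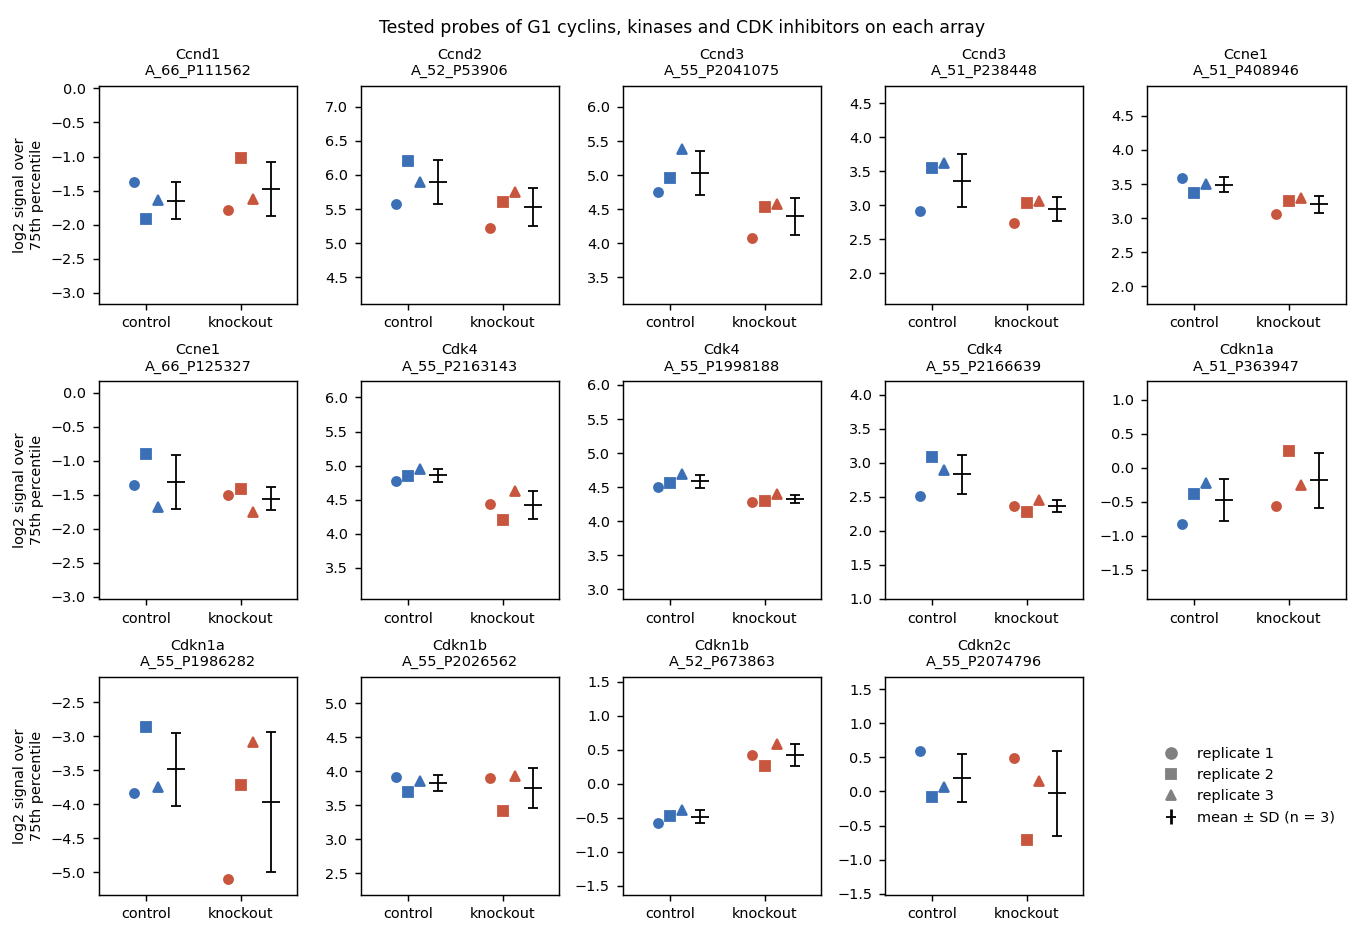
Log2 processed signal over the 75th percentile of the array (y axis, every panel spanning the same number of log2 units) for each of the 14 tested probes on the 3 control (blue) and 3 knockout (red) arrays, with the replicate as marker shape and mean ± SD in black. The genotypes are apart with knockout lower for 5 probes (1 of *Ccnd3*, 1 of *Ccne1* and all 3 of *Cdk4*) and with knockout higher for *Cdkn1b* A_52_P673863. Of all tested probes, 19.5% are apart with knockout lower and 15.6% with knockout higher.

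For the E cyclins, the partners of CDK2, only *Ccne1* could be tested. Its brighter probe, A_51_P408946 (chr7:38882937-38882960, minus strand; the interval in the array files covers 24 bases of the probe), was 3.59, 3.37 and 3.50 in control and 3.06, 3.25 and 3.29 in knockout samples. All knockout values lay below all control values, by a small margin, and the difference was -0.28 (1.22-fold, 95% interval -0.63 to 0.06, limma adjusted p = 0.264), which was -0.0867 with quantile normalization and -0.069 with normexp and quantile normalization. Its other probe, A_66_P125327, lies 2637 bases upstream and was -1.35, -0.90 and -1.68 in control and -1.50, -1.42 and -1.75 in knockout samples, which overlap. It differed by -0.24 (95% interval -0.77 to 0.28, limma adjusted p = 0.492), with the sign turned to 0.16 when normexp background correction preceded the same scaling. *Ccne2*, which encodes cyclin E2, had 1 probe (chr4:11131423-11131482), well above background on 0 of 6 arrays, with processed signals of 2.39 to 3.68 in control and 2.56 to 2.93 in knockout samples. No fold is given for it.

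*Cdk4*, the kinase partner of the D cyclins, was the member with the most tested probes, and all 3 separated the genotypes with knockout lower. Of all tested probes 19.5% did so. At A_55_P2163143 (chr10:126504279-126504338, plus strand) the values were 4.77, 4.85 and 4.95 in control and 4.44, 4.20 and 4.62 in knockout samples. At A_55_P1998188 (chr10:126504174-126504233) they were 4.50, 4.56 and 4.69 against 4.28, 4.30 and 4.40. At A_55_P2166639 (chr10:126503162-126503221) they were 2.51, 3.08 and 2.89 against 2.36, 2.28 and 2.45. The gap between the closest arrays was small each time, and on the last probe control 1 stood nearest to the knockout arrays. The differences were -0.44 (95% interval -0.82 to -0.05, limma adjusted p = 0.17), -0.26 (-0.59 to 0.07, limma adjusted p = 0.276) and -0.46 (-0.89 to -0.03, limma adjusted p = 0.186). These probes read 1 gene in the same 6 samples and are not independent replicates of each other. The intervals of all 3 stayed inside 2-fold, and the 3 differences kept their sign under each scaling tried, but not their size. A_55_P1998188 went down to -0.0835 with quantile normalization and -0.0508 with normexp and quantile normalization, and A_55_P2163143 ran from -0.78 to -0.25. *Cdk6*, which encodes the other kinase of the D cyclins, had 1 probe (chr5:3522106-3522165), well above background on 0 of 6 arrays, with processed signals of 3.67 to 8.11 in control and 2.54 to 2.92 in knockout samples.

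Among the CIP/KIP inhibitors, *Cdkn1b* gave 2 different readings. It encodes p27, which binds cyclin and CDK complexes and is high in resting lymphocytes. The bright probe A_55_P2026562 (chr6:134875424-134875483, plus strand) was 3.92, 3.69 and 3.86 in control and 3.90, 3.41 and 3.93 in knockout samples. The genotypes overlapped, with knockout 2 below the others, and the difference was -0.08 (standard error 0.189, 95% interval -0.52 to 0.36, limma adjusted p = 0.803). That sign is not stable, since it was 0.10 with quantile normalization or the deposited values, 0.0809 with normexp and quantile normalization, 0.0132 with scaling on the median of detected probes and -0.39 with normexp and the 75th percentile. The dimmer probe A_52_P673863 (chr6:134873606-134873665, plus strand; listed under transcript ENSMUST00000067327) lies 1818 bases upstream. It was -0.58, -0.48 and -0.39 in control and 0.42, 0.26 and 0.59 in knockout samples, so that every knockout value was higher than every control value by a gap wider than the spread within either genotype. Its difference was 0.90 (1.87-fold, standard error 0.154, 95% interval 0.54 to 1.26), with a limma adjusted p of 0.0814, and it was positive under each scaling tried. Before scaling, its processed signals were 176, 181 and 208 in control and 175, 79.5 and 243 in knockout samples and overlapped, so that the gap appears once each array's overall brightness is taken into account.

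A shift equal at every brightness cancels when both probes of 1 gene are compared on that array. The 2 *Cdkn1b* probes lay far apart in brightness, with control means of 3.82 and -0.48. A shift that changes with brightness would not cancel, and it was not tested. For *Cdkn1b* the dimmer probe minus the bright one was -4.50, -4.17 and -4.25 on control arrays and -3.49, -3.15 and -3.34 on knockout arrays. The 2 genotypes did not overlap, and the change was 0.98 (two-sided exact permutation p = 0.1, which is the smallest that 3 arrays against 3 allow; Benjamini-Hochberg adjusted p = 0.35 over the 7 probe pairs of members). That test cannot decide the question, because 3 arrays against 3 allow no p under 0.1. Within these samples only, the values moved apart between the 2 probes. The sequences printed for them show different stretches, and the files do not give the place of either in the transcript. For *Cdk4*, A_55_P1998188 minus A_55_P2163143 was -0.27, -0.29 and -0.25 in control and -0.16, 0.10 and -0.22 in knockout samples, a change of 0.18 (exact permutation p = 0.1, adjusted 0.35). The other 5 pairs overlapped between genotypes, with changes of -0.77 to 0.22. The share of same-gene probe pairs without overlap was not computed over all genes. For single probes it was 35.2% and for pairs of different genes 31.4%.

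*Cdkn1a* encodes p21, which p53 induces after DNA damage. Its main probe, A_51_P363947 (chr17:29237377-29237436, plus strand), was printed in 10 spots on each array, and the SD between its spots within an array was 0.0428 to 0.105. Its means were -0.82, -0.38 and -0.23 in control and -0.56, 0.25 and -0.25 in knockout samples. Spot error was thus several times smaller than the spread between samples (SD 0.30 in control and 0.41 in knockout), and the genotypes overlapped, with knockout 2 the highest. Its difference was 0.29 (1.22-fold, standard error 0.253, 95% interval -0.30 to 0.88, limma adjusted p = 0.467). A second probe, A_55_P1986282, lies 9391 bases upstream and was well above background on 3 control arrays and 1 knockout array, so its difference of -0.48 (95% interval -1.68 to 0.72, limma adjusted p = 0.549) is only loosely measured, and it turned to 0.52 with normexp and the 75th percentile. Probe A_55_P1976204 (chr17:29235299-29235358), was above background on 0 of 6 arrays.

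*Cdkn2c*, which encodes the INK4 protein p18, a direct inhibitor of CDK4 and CDK6, was read by 1 probe (chr4:109333508-109333567, minus strand). Its values were 0.59, -0.08 and 0.07 in control and 0.49, -0.72 and 0.15 in knockout samples, with control 1 and knockout 1 the highest. Its difference was -0.22 (95% interval -1.0 to 0.56, limma adjusted p = 0.677), and without knockout 2 it was 0.13.

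**Figure D2:**
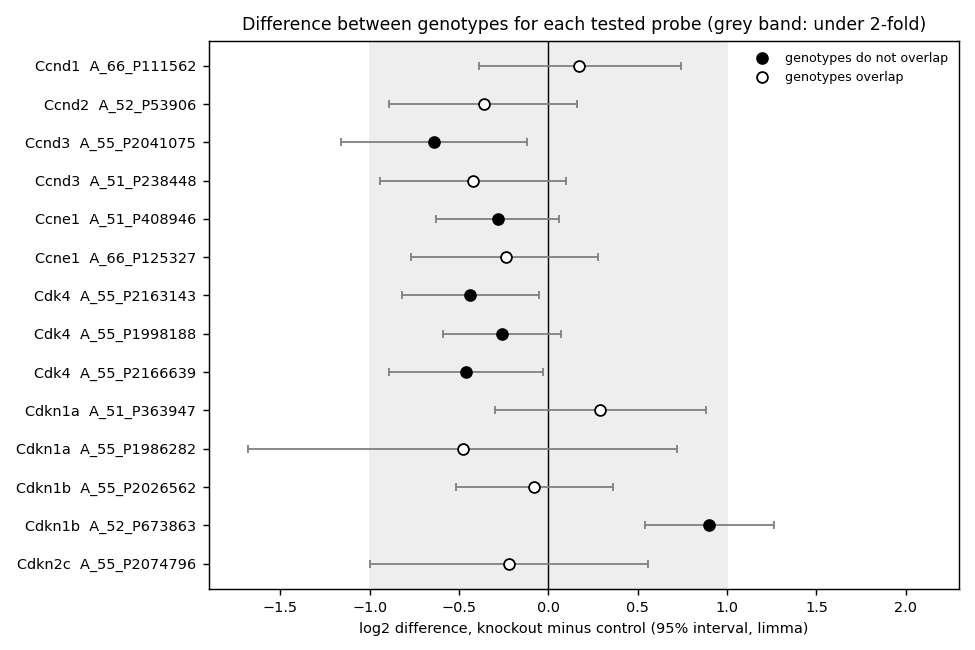
Log2 difference, knockout minus control (x axis), with its 95% limma interval for each of the 14 tested probes; filled points mark probes whose genotypes do not overlap, and the grey band marks differences under 2-fold. The intervals of 10 probes stay inside the band and 4 reach its edge or pass it, and *Cdkn1b* A_52_P673863 at 0.90 is the farthest from 0.

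Counted over the set, 0 of 14 tested member probes had a limma adjusted p under 0.05 (0.0808% of all tested probes did) and 0 passed the 2-fold thresholds (3.63%, 1.25% lower and 2.38% higher in knockout samples), whereas 4 of 14 had an unadjusted limma p under 0.05. These 4 were A_55_P2041075 of *Ccnd3*, A_55_P2163143 and A_55_P2166639 of *Cdk4* and A_52_P673863 of *Cdkn1b*. They make up 28.6% of the tested members, close to the 24.5% of all tested probes that met the same limit (12% lower and 12.6% higher). The genotypes did not overlap for 6 of 14 member probes (42.9%), against 35.2% of all tested probes. With knockout lower there were 5 of these member probes, against 19.5% of all tested probes, and with knockout higher 1, against 15.6%. Of the 14, 11 had a lower mean in knockout samples and 3 a higher one, with 9 or 10 lower under the other 5 scalings. Without knockout 2, 10 were lower. The median difference was -0.27 over the tested member probes and -0.09 over all tested probes. With 1 probe per gene, 6 of 8 member genes were lower, and the median was -0.25 against -0.12 over 18252 genes, of which 60.2% were lower. The members' median was -0.13 without control 1, and 5 of 8 were lower with medians of -0.16 and -0.14 under quantile normalization without and with normexp, while normexp with the 75th percentile gave 6 of 8 and -0.46. By role, 8 of the 9 probes for cyclins and kinases were lower (median -0.36) and 3 of the 5 probes for inhibitors (median -0.08); the difference between the roles was not tested, because the probes share samples and genes.

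A ratio between 2 genes on the same array is not touched by a shift equal at every brightness, and it shows unequal change only. A shift that changes with brightness can touch it, and this was not tested. The 8 tested members, each by its brightest probe, give 28 such pairs, and 6 of them (21.4%) did not overlap between genotypes. Over all pairs of the 18241 genes with a value on every array the share was 31.4%, so the members' share is not above it. Of these 6, 4 set a cyclin or kinase against *Cdkn1a*. The value of *Ccnd3* minus *Cdkn1a* was 5.57, 5.34 and 5.61 in control and 4.64, 4.29 and 4.82 in knockout samples, a change of -0.93. For *Cdk4* the change against *Cdkn1a* was -0.73, for *Ccnd2* -0.65 and for *Ccne1* -0.57, all without overlap, and for *Ccnd1* it was -0.12 with overlap. Of all genes, 19.8% were lower relative to *Cdkn1a* without overlap and 2.43% higher. The other pairs without overlap were *Cdk4* minus *Cdkn1b*, with a change of -0.36, and *Ccnd1* minus *Ccne1*, with one of 0.46. The comparisons with *Cdkn1a* share its 6 values, so they count as 1 reading and not as separate ones, and no p-value is given for them.

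**Figure D3:**
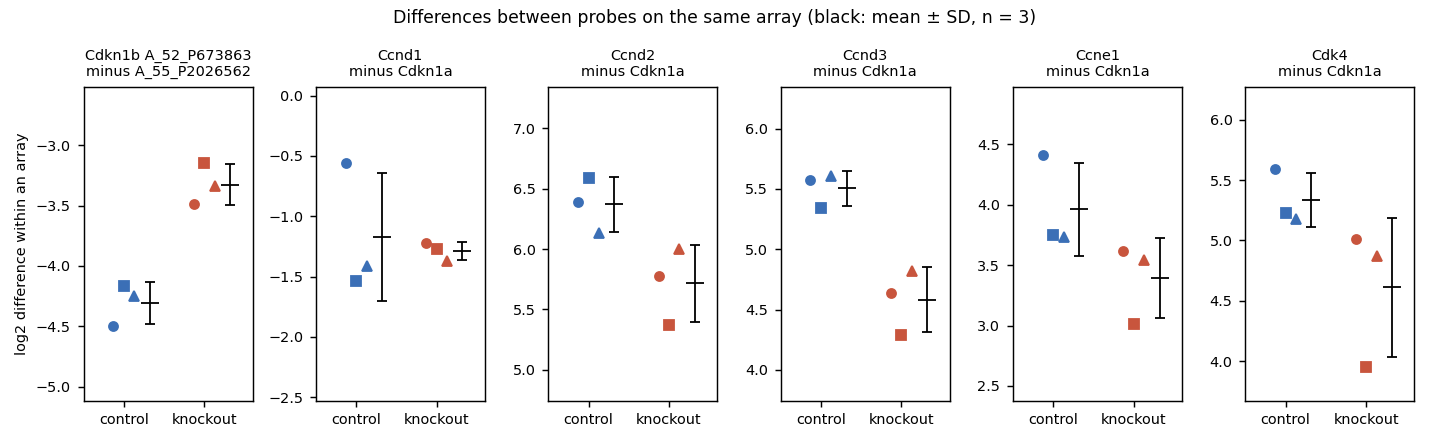
Log2 difference between 2 probes on the same array (y axis, each panel spanning the same number of log2 units) for the *Cdkn1b* probe pair and for 5 cyclin or kinase genes minus *Cdkn1a*, on control (blue) and knockout (red) arrays, with mean ± SD in black. The *Cdkn1b* pair is higher on all knockout arrays, *Ccnd2*, *Ccnd3*, *Ccne1* and *Cdk4* are lower relative to *Cdkn1a* on all knockout arrays, and *Ccnd1* overlaps.

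The genes around the members were read by 7 lists, and none of their 88 tested genes had a limma adjusted p under 0.05, while 33 (37.5%) had an unadjusted limma p under 0.05. Over all 18252 genes these shares were 0.0657% and 24.4%, and 3.54% passed the 2-fold thresholds. Among the 78 listed genes well above background on all 6 arrays 29 (37.2%) had an unadjusted limma p under 0.05, against 28.1% of all such probes. The adjusted counts depended on the processing, and for the list of S phase genes they were 12 of 21 with normexp and the 75th percentile, 16 with array weights and 3 with trended and robust eBayes. Over all tested probes the shares under these settings were 37.7%, 16.2% and 3.96%. The RB and E2F family, the main target of the CDK4 and CDK6 complexes and the factors it holds, had 15 of 18 tested genes lower and 3 higher (median -0.24), with 12 to 14 lower under the other scalings. The median was -0.15 without knockout 2 and -0.12 with array weights. No gene of this family passed the 2-fold thresholds as reported, and 1 did with quantile normalization, with the deposited values, and without control 2, control 3 or knockout 1. *E2f8*, a repressor that is itself made in S phase, had the lowest difference, -0.98 (values of -1.46, -2.08 and -1.89 against -2.45, -3.09 and -2.81, limma adjusted p = 0.103), and was well above background on 2 of 3 knockout arrays. Its close relative *E2f7* had the highest, 0.48 (-2.78, -2.36 and -2.68 against -2.32, -1.82 and -2.24, limma adjusted p = 0.194). Each was without overlap between genotypes, but the 2 were named as the lowest and highest of the list, so their opposite sides follow from that choice. *E2f7* was dim, with processed signals of 38.4, 49 and 42.5 in control and 26.1, 18.8 and 34.3 in knockout samples.

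CDK2, its partners and the CDK-activating kinase had 6 of 6 tested genes lower (median -0.37), with 5 of 6 lower under 2 of the other scalings. One passed the 2-fold thresholds, *Ccna2*, which encodes cyclin A2 of S phase and G2, with 0.28, -0.77 and -0.45 in control and -2.05, -0.75 and -1.36 in knockout samples. Its difference was -1.07 (limma adjusted p = 0.16), and knockout 2 lay among the control values. The list had no gene past the thresholds with normexp (both scalings), the median of detected probes or the replicate block, nor without control 1, knockout 1 or knockout 3. The 5 other CDK inhibitors had differences of -0.56 to -0.07, with no stable direction, since 3 of the 5 were higher with normexp and the 75th percentile and 3 without control 1. *Cdkn1c* and *Cdkn3* among them were well above background on 1 of 3 knockout arrays. *Cdkn3*, a phosphatase that acts on CDK2, had the lowest difference, -0.56, with -2.54, -2.92 and -2.99 against -3.58, -2.97 and -3.57.

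Genes for the turnover of cyclins and inhibitors had 11 of 13 lower (median -0.31), and 10 or 11 under the other scalings. The median was -0.18 with quantile normalization, -0.15 with normexp and quantile normalization and -0.49 with normexp and the 75th percentile. *Cryab*, a small heat shock protein that takes part with FBXO4 in the removal of cyclin D1, passed the 2-fold thresholds with -2.67, -2.48 and -2.57 in control and -1.32, -1.27 and -1.70 in knockout samples. Its difference was 1.14 (limma adjusted p = 0.0769), and no gene of the list passed 2-fold with quantile normalization, the deposited values or either normexp setting. Before scaling, the processed signals of *Cryab* were 41.3, 45.1 and 45.7 in control and 52.4, 27.5 and 49.8 in knockout samples and overlapped. *Cks1b*, the cofactor with which SKP2 marks p27 for destruction, was 2.11, 1.55 and 2.34 against 0.66, 1.5 and 1.26, a difference of -0.86 without overlap (limma adjusted p = 0.146).

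Transcription factors upstream of the members had 9 of 12 tested genes lower and 3 higher (median -0.18), with 7 or 8 lower under the other scalings. The median was -0.07 without knockout 2, -0.06 with normexp and quantile normalization and -0.37 with normexp and the 75th percentile. *Gfi1*, a repressor that restrains *Cdkn1a* and other targets in blood cells, was 0.67 higher (-0.52, -0.72 and -0.33 against 0.46, -0.21 and 0.20, limma adjusted p = 0.137). *Bcl6*, the repressor of germinal centre B cells, was 1.01, 0.92 and 1.45 against 0.60, 0.58 and 0.42, a difference of -0.60 (limma adjusted p = 0.133). Both genes were apart between genotypes on all arrays. Targets of p53 other than *Cdkn1a* had 11 of 13 lower (median -0.23), from *Phlda3*, an inhibitor of AKT, at -0.50 to *Gadd45a*, a stress gene, at 0.16. The p53 list had a median of -0.06 with 10 of 13 lower under quantile normalization, one of -0.50 with 12 of 13 lower under normexp and the 75th percentile, and one of -0.08 without knockout 2.

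S phase genes driven by E2F were lower in knockout samples for 21 of 21 tested genes, with 20 lower under 4 of the other scalings and 16 under normexp with the 75th percentile. Their median of -0.54 lies beside -0.12 over all genes, and the list's median was -0.33 with normexp and quantile normalization. Of the 21, 17 were well above background on all 6 arrays, and the others passed the filter through the control arrays. The 17 were all lower (median -0.52), 11 of them without overlap (21.6% of all genes were so with knockout lower) and 12 with an unadjusted limma p under 0.05 (13% of all genes, lower). These shares of all genes include dimmer genes. Among probes well above background on all 6 arrays, 28.1% had an unadjusted limma p under 0.05 in either direction. The 2-fold thresholds were passed by 1 of these 17, and by no gene of the list with normexp and quantile normalization. *Rrm2*, a subunit of ribonucleotide reductase, was 2.55, 1.44 and 1.48 in control and 0.34, 1.03 and 0.90 in knockout samples, a difference of -1.07 (limma adjusted p = 0.137). *Cdc6*, which loads the replicative helicase and passed them only by a fitted value, was well above background on 3 control arrays and on 0 knockout arrays, so it was at least 1.12-fold lower (fitted difference -1.35, limma adjusted p = 0.126). *Mki67*, a proliferation marker chosen here after its values were seen, was 2.72, 2.12 and 2.02 against 1.16, 1.55 and 1.58, a difference of -0.85 without overlap (limma adjusted p = 0.12).

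**Figure D4:**
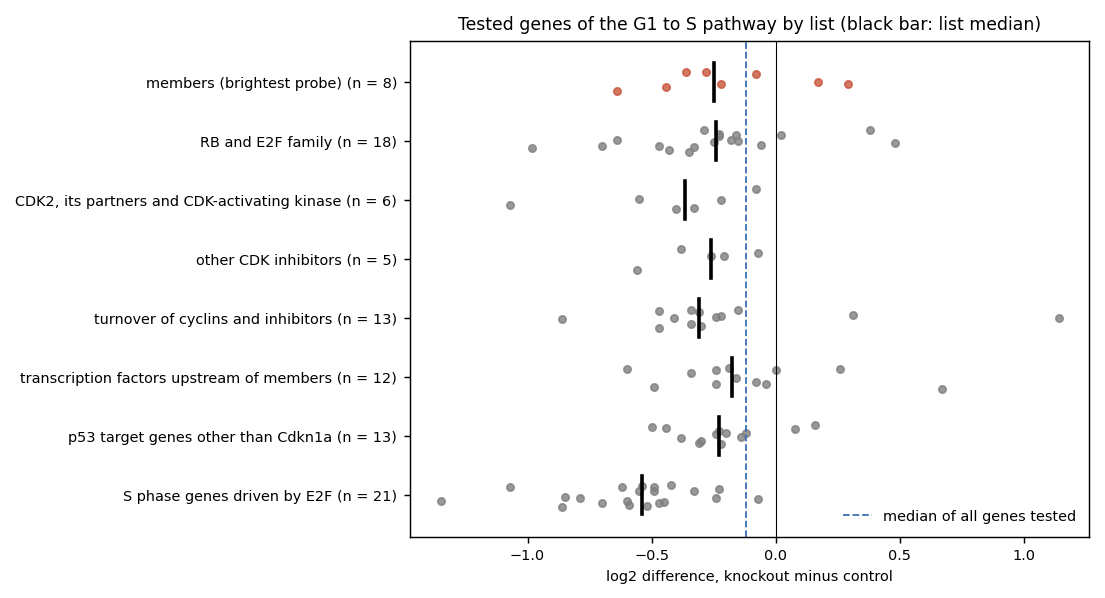
Log2 difference, knockout minus control (x axis), of each tested gene in the set of 8 tested members (red, brightest probe) and in the 7 pathway lists (grey), with list medians as black bars and the median of all genes as a dashed line. The S phase list has the lowest median, -0.54, and all list medians lie below the -0.12 of all genes.

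*Ccnd3* had the largest difference among the genes as represented by their brightest probes, and the genes of these lists whose values were most like it over the 6 arrays were *Fbxo31* (Pearson r = 0.942), *Skp1a* (r = 0.94) and *Bax* (r = 0.931). *Fbxo31* and *Skp1a* encode parts of the ubiquitin ligases that remove cyclins and their inhibitors, and *Bax* a death effector of the BCL2 family. *Bax*, for example, was 4.15, 4.26 and 4.44 in control and 3.82, 3.86 and 3.86 in knockout samples. These correlations are a description over 6 arrays that share 1 scaling and 2 genotypes.

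Markers of other cells were read beside these values, and no tested gene among them had a limma adjusted p under 0.05. The summed level of 8 T cell markers was 8.98 to 14.9 on control and 13.2 to 17.1 on knockout arrays, which overlap, with 5 of 6 tested genes higher. *Thy1* (2.13, limma adjusted p = 0.133) and *Cd3d* (1.41, limma adjusted p = 0.189) passed the 2-fold thresholds. *Thy1* was -1.57, -1.73 and 0.51 in knockout samples, and *Cd3d* overlapped between genotypes. *Cd8a* and *Cd8b1* were well above background on 0 control arrays and 1 knockout array. Macrophage markers summed to 34.5 to 81.6 on control and 28.7 to 51.5 on knockout arrays, all 9 tested genes lower and *Lyz2* at -1.08. Plasma cell markers summed to 61 to 70 on control and 45.3 to 55.4 on knockout arrays without overlap, with all 4 genes lower and *Sdc1* well above background on 0 of 3 knockout arrays. Most of that sum is *Xbp1* (difference -0.52) and *Irf4* (-0.30), and *Sdc1* adds little to it. The NK cell markers had no tested gene. For B2 cells the sums were 16.6 to 26.6 and 16.6 to 30.1, and for granulocytes and mast cells 109 to 118 and 115 to 222. That last sum is mostly *Csf3r* (difference 0.46), while the mast cell genes *Mcpt4* (fitted -2.01, past the 2-fold thresholds, well above background on 1 of 3 knockout arrays) and *Cpa3* (fitted -1.27, on 2 of 3) lay the other way. The part of these cells in the differences of the cyclins, kinases and inhibitors was not tested.

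Promoter sequence was taken from RefSeq (GRCm38.p6), 250 bases before to 50 after a transcript start, which matched 7 of the 10 members in 10 windows. *Cdk4* is shown, as the kinase gene whose 3 probes were all lower and whose window holds the E-box CACGTG, the letters that MYC and its partner MAX bind, 4 times (capitals). The stretch is chr10:127063285-127063534 on the plus strand, the 250 bases before the start.
*Cdk4* promoter: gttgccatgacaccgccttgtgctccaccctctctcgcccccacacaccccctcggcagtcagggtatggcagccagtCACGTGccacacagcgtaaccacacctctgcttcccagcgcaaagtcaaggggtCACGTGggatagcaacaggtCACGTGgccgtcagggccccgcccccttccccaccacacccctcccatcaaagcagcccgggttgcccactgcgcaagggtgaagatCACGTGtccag
CACGTG reads the same on both strands. It occurs in 7.15% of the 32851 promoter windows of that length, and 8 windows (0.0244%) hold it 4 times or more. *Cdk6* and *Cdkn2c* hold it 1 time in 1 window each. The E2F strings TTTCCCGC, TTTGGCGC, TTTCGCGC and TTTGCCGC, searched on both strands, were in 0 of the 10 member windows and in 2.26% of all windows. A match is a description of the sequence and not a site. *Myc* itself, whose probe was 4.34, 4.12 and 4.28 in control and 3.73, 3.68 and 4.31 in knockout samples, differed by -0.34 with overlap (limma adjusted p = 0.317), and it too was chosen after its values were seen.

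**Figure D5:**
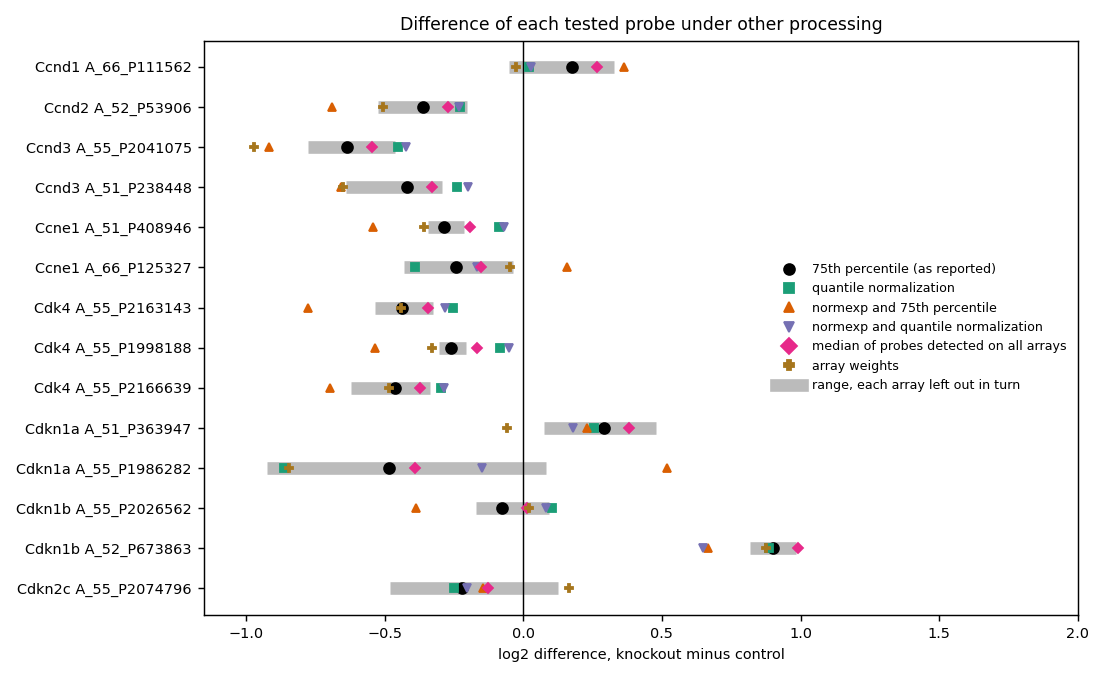
Log2 difference, knockout minus control (x axis), of each tested member probe as reported (black) and under quantile normalization, both normexp settings, the median of detected probes and array weights (coloured), with the range when each array is left out in turn (grey bar). *Ccnd2*, *Ccnd3*, *Cdk4* and the brighter *Ccne1* probe stay below 0 and *Cdkn1b* A_52_P673863 above 0 throughout, and the other 6 probes cross 0.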

How the data were processed

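PC B1a cells were profiled on 6 arrays (3 knockout, 3 control). The authors read the arrays with Agilent Feature Extraction 10.7.1.1 and deposited each spot's intensity, background subtracted and unscaled between arrays, with quality marks. They also deposited 1 table of log2 values, with the same median (3.17) on every array, for which no scaling is named in the sources used here. Processed intensities were brought to log2, and each array's 75th percentile over 59305 non-control spots was subtracted. Spots with an outlier mark (163 to 251 per array) were dropped before averaging per probe. Testing required a signal well above background on every array of 1 genotype or both and values on no fewer than 2 arrays per genotype. Genotypes were compared in limma 3.58.1 (R 4.3.3, lmFit and eBayes, no covariates), each probe on its own, with Benjamini-Hochberg adjustment over all 24751 tested probes and a threshold of 0.05. The steps were tested on simulated data.

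The members and lists were chosen with earlier results of these data known. Of several tested probes the brightest stands for its gene. Named from a list are genes past the 2-fold thresholds or the adjusted p and those with the largest increase and decrease, and the 3 genes most like the member with the largest difference. Where a genotype was not well above background on any array, a fold is given as a bound against the lowest signal well above background. The alternatives were quantile normalization, normexp (offset 50) with the 75th percentile or quantile normalization, scaling on the median of detected probes, the deposited values, 2 other filters on dim probes, outlier spots kept, 1 probe or the mean of probes per gene, trended and robust eBayes, a replicate block, array weights, and 1 array left out at a time. One marker list is not reported here.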

Additional observations from a re-analysis of the deposited data

How the results depend on the processing

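Among the tested member probes, those of *Ccnd2*, *Ccnd3* and *Cdk4* and A_51_P408946 of *Ccne1* were lower and A_52_P673863 of *Cdkn1b* higher in knockout samples under every alternative that reads these probes (with 1 probe per gene, *Cdkn1b* is read by A_55_P2026562 alone, and with the mean of probes the value is that of the gene), though as little as -0.0508 for *Cdk4* A_55_P1998188 and -0.069 for the *Ccne1* probe (normexp and quantile normalization). Of 259 values under alternatives 231 kept direction and side of the threshold, 12 passed the adjusted p in the same direction and 16 changed sign. The count of member probes at an adjusted p under 0.05, 0 as reported, was 9 with normexp and the 75th percentile (7 lower, 2 higher, while 9327 of all probes passed), 1 with trended and robust eBayes (*Cdkn1b* A_52_P673863, adjusted p = 0.0284; 980 of all probes) and 3 with array weights (3998 of all probes). The cause of these counts was not tested. Of the 88 genes in the pathway lists, 0 as reported, 37 passed with normexp and the 75th percentile, 31 with array weights, 4 with trended eBayes, and 1 with the strictest filter on dim probes and without knockout 3. Over the alternatives the adjusted p of *Cdkn1b* A_52_P673863 was 0.0154 to 0.245 and that of *Ccnd3* A_55_P2041075 0.00801 to 0.393. At the 2-fold thresholds the count stayed 0, except 1 with no filter on dim probes, which adds probes at background and moved the median of all probes from -0.09 to 0.55.

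Signs changed for *Cdkn1b* A_55_P2026562 (0.10 with quantile normalization and with the deposited values, 0.0809 with normexp and quantile normalization, 0.0132 with the median of detected probes, 0.41 as the mean of both probes, 0.0204 with array weights), *Ccne1* A_66_P125327 (0.16) and *Cdkn1a* A_55_P1986282 (0.52) with normexp and the 75th percentile, *Cdkn1a* A_51_P363947 (-0.10 as the mean of its probes, -0.0595 with array weights), *Ccnd1* (-0.0267) and *Cdkn2c* (0.17) with array weights. With 1 array left out, the differences ran from -0.0505 to 0.33 for *Ccnd1*, -0.17 to 0.0925 for *Cdkn1b* A_55_P2026562, -0.48 to 0.13 for *Cdkn2c* (each turned without knockout 2) and -0.92 to 0.0834 for *Cdkn1a* A_55_P1986282 (turned without knockout 1).

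Over all probes, the adjusted count of 20 was 6 with quantile normalization or the deposited values, 60 with normexp and quantile normalization, 2 without and 94 with the strictest filter on dim probes, 7 with 1 probe per gene, 11 with the mean of probes, and 2 to 115 with 1 array left out (115 without knockout 3). The 2-fold count of 899 was 233 and 189 with normexp (75th percentile and quantile), 18975 without a filter, 591 with the strictest filter, and 742 to 1539 with 1 array left out (1539 without knockout 3). Of the 2-fold calls 65.5% were higher in knockout samples, against 43.1% with quantile normalization, 43.2% with the deposited values, 78.5% with the median of detected probes and 81% with normexp and quantile normalization. Same-numbered samples deviated together with correlations of 0.18, 0.06 and 0.12, and differently numbered ones with -0.18 to 0.04. The same-numbered correlations were thus the highest, though low. The sources do not say that the numbers pair samples, so no pairing was used as reported. With the replicate number as a block 1 probe passed the adjusted p, no member did, and 902 passed the 2-fold thresholds. Signal limits the reading of *Ccne2*, *Cdk6* and 2 of the 3 *Cdkn1a* probes, and 3 arrays a genotype limit the precision of all.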
